A study of Mus musculus with 6 samples.

Results

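The genes described here are those of the cytosolic ribosomal proteins, the proteins that with ribosomal RNA build the large and small subunits of the ribosome, together with their paralogs, among them the striated muscle form Rpl3l. They were chosen by symbol alone: every gene on the array whose symbol has the form Rpl or Rps with a number, or Rpsa, which leaves out the ribosomal protein S6 kinases. The rule found 49 of the 18193 genes measured: 22 proteins of the large subunit, 21 of the small subunit and 6 paralogs. Expression was measured on 6 Affymetrix mouse arrays, 3 for each of 2 genotypes, from whole hearts of animals aged 3 months. TNFαDes-/- hearts overexpressed tumour necrosis factor α in a cardiac-specific manner, per the series title, and lacked desmin, the intermediate filament protein of muscle. Des-/- hearts lacked desmin without that transgene. Which promoter drove the transgene is not stated in the labels. The TNFαDes-/- mice were of a mixed 129SV/C57 strain and the Des-/- mice of strain 129SV, so that strain and transgene cannot be told apart, and no heart with intact desmin was among the samples. The design gives 3 mice per genotype, whereas the labelling protocol speaks of RNA pooled from 3 hearts. The p-values below therefore reflect the scatter of these arrays alone, and that scatter may be technical.

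Ribosomal proteins are made in near equal numbers for assembly in the nucleolus, and their messenger RNAs are among the most abundant of a cell. Many of these messages begin with a run of pyrimidines, the 5′ terminal oligopyrimidine tract, through which the kinase complex mTORC1 adjusts their translation to growth and nutrients. Most ribosomal proteins have 1 form in all tissues. Rpl3l is an exception: it is made in heart and skeletal muscle, where it can take the place of Rpl3, a protein close to the peptidyl transferase centre of the large subunit.

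All values are log2 expression values as deposited, and a change is the mean of the TNFαDes-/- arrays minus the mean of the Des-/- arrays. A gene rose or fell where limma gave an adjusted p under 0.05 (Benjamini-Hochberg over all 18193 genes). By that rule 3869 genes, or 21.3%, passed, with 15.2% higher and 6.05% lower. The Des-/- arrays were unlike each other at the bright end: the highest value was 15.01 to 15.04 on the TNFαDes-/- arrays and 14.95, 14.20 and 14.23 on Des-/- replicates 1, 2 and 3, while the array medians all lay between 5.02 and 5.08. Of the 49 ribosomal protein genes, 39 belong to the 3638 brightest genes (1 in 5 of all, by the mean over the 6 arrays, and called bright genes below). Their values are therefore also given after quantile normalization, which makes the 6 distributions equal, and as differences within an array. Such a difference cancels an offset shared by all probe sets of an array, but not a shift that grows with brightness. The median change over all genes was 0.04 in the deposited values and -0.00 once quantile normalized, and over the other bright genes it was 0.26 and 0.02. The transgene was not visible on the array's Tnf probe set, with 5.73 to 6.09 on the TNFαDes-/- arrays and 5.79 to 5.97 on the Des-/- arrays (limma adjusted p = 0.746). The Des probe set read 8.73 to 8.88 in TNFαDes-/- hearts and 8.33 to 8.43 in Des-/- hearts, and because its position relative to the deletion is unknown it checks nothing.

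Rpl3l was the only one of the 49 genes that fell. Its log2 values were 7.75, 7.73 and 7.81 in TNFαDes-/- hearts, against 11.37, 10.72 and 10.71 in Des-/- hearts. All 3 TNFαDes-/- arrays lay far below all 3 Des-/- arrays. It averaged 7.77 ± 0.04 in TNFαDes-/- hearts and 10.93 ± 0.38 in Des-/- hearts (SD, n = 3 each), a change of -3.17 ± 0.17 (SE; limma adjusted p = 1.67e-05), or 8.98-fold lower. After quantile normalization the change was -3.41 (limma adjusted p = 1.85e-07). Over 16 alternative ways of processing the arrays the change stayed between -3.60 and -2.95, and the highest limma adjusted p was 0.00052. Several of these, such as the choice of probe set, could not move the change of this gene. The gene has a single probe set, which hybridised well above the array medians in both groups. In whole hearts, fewer cells of a type and less RNA per cell cannot be told apart.

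Rpl3, the form found in all tissues, has no probe set of its own here: its bright probe set is annotated to Rpl3 and Gm12816 together, so that RNA of either gene enters it. That shared probe set moved the other way. It gave 13.09, 13.13 and 13.13 in TNFαDes-/- hearts, against 12.30, 11.72 and 11.62 in Des-/- hearts, and the groups did not overlap. The change was 1.23 ± 0.17 (SE; limma adjusted p = 0.00272 over 45037 probe sets), or 2.35-fold higher, and 0.87 after quantile normalization (limma adjusted p = 0.000409). A second, dim probe set that lists Rpl3 with Gm12816 and Gm5879 gave 4.37, 3.97 and 4.59 in TNFαDes-/- hearts, against 4.08, 4.20 and 4.34 in Des-/- hearts, with overlapping groups.

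Within each array, Rpl3l minus the bright Gm12816 and Rpl3 probe set was -5.33, -5.39 and -5.32 in TNFαDes-/- hearts, against -0.93, -1.0 and -0.92 in Des-/- hearts. The difference between probe sets is not a difference in abundance, since probe sets differ in affinity, but its shift between genotypes can be read. That shift was -4.40, with SDs of 0.04 in both groups, and Des-/- replicate 1 no longer stood apart from replicates 2 and 3. The exact two-sided permutation p was 0.1, the smallest that 3 arrays against 3 allow (0.133 after Benjamini-Hochberg adjustment over 8 paralog pairs). The shift was -4.28 after quantile normalization and -3.84 when all probe sets of a gene were averaged. Set instead against the median of the 35 bright main ribosomal protein genes on the same array, Rpl3l stood at -5.14, -5.15 and -5.10 in TNFαDes-/- hearts, against -1.46, -1.49 and -1.45 in Des-/- hearts. By the same measure the Gm12816 and Rpl3 probe set stood at 0.20, 0.24 and 0.22 in TNFαDes-/- hearts, against -0.53, -0.49 and -0.53 in Des-/- hearts. Both measures separated the groups, with spreads of 0.02 within each group (exact two-sided permutation p = 0.1 each).

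The 150 bases before the RefSeq start of Rpl3l (build GRCm38.p6, chr17:24727676-24727825, plus strand) are printed because Rpl3l is the gene with the largest change of the 49. Capitals mark E-boxes, CANNTG, the motif bound by MyoD, Myc and related factors.
Rpl3l: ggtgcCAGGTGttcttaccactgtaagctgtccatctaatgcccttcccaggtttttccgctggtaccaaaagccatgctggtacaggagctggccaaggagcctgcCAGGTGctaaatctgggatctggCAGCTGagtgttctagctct
In the window of 300 bases around the start (250 before and 50 after), Rpl3l held 4 E-boxes: CAGGTG 145 and 43 bases before the start, CAGCTG 20 bases before it and CATTTG 2 bases after it. It held no ETS core (CGGAAG) and no TATAAA, both searched on either strand. Of the 43 ribosomal protein genes with such a promoter, 30 (69.8%) held the ETS core, against 17.1% of all 27025 promoters, and 22 (51.2%) held an E-box, against 72.2%. TATAAA was found in 6 of the 43 (14.0%) and in 14.2% of all promoters, and the MEF2 motif in 0 of the 43 and in 3.71% of all promoters. These are matches of letters, not sites shown to be bound.

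Among the 5 genes on each side of Rpl3l in the RefSeq order on chromosome 17, 0 fell and 2 rose. Rps2, 2 places before it and itself a ribosomal protein gene, gave 12.83, 12.78 and 12.76 in TNFαDes-/- hearts, against 12.71, 12.44 and 12.48 in Des-/- hearts (change 0.25, limma adjusted p = 0.135). Its direct neighbours, the complex I subunit Ndufb10 and the selenoprotein Msrb1, changed by 0.20 (limma adjusted p = 0.508) and 0.17 (limma adjusted p = 0.382). Hagh, a glyoxalase, rose by 1.0 ± 0.10 (SE; limma adjusted p = 0.000418) and the rRNA processing factor Tbl3 by 0.36 ± 0.11 (SE; limma adjusted p = 0.0484, or 0.133 after quantile normalization). Noxo1, Rnf151, Hs3st6, Meiob and Fahd1 changed by -0.21 to 0.19 and did not pass.

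**Figure D1:**
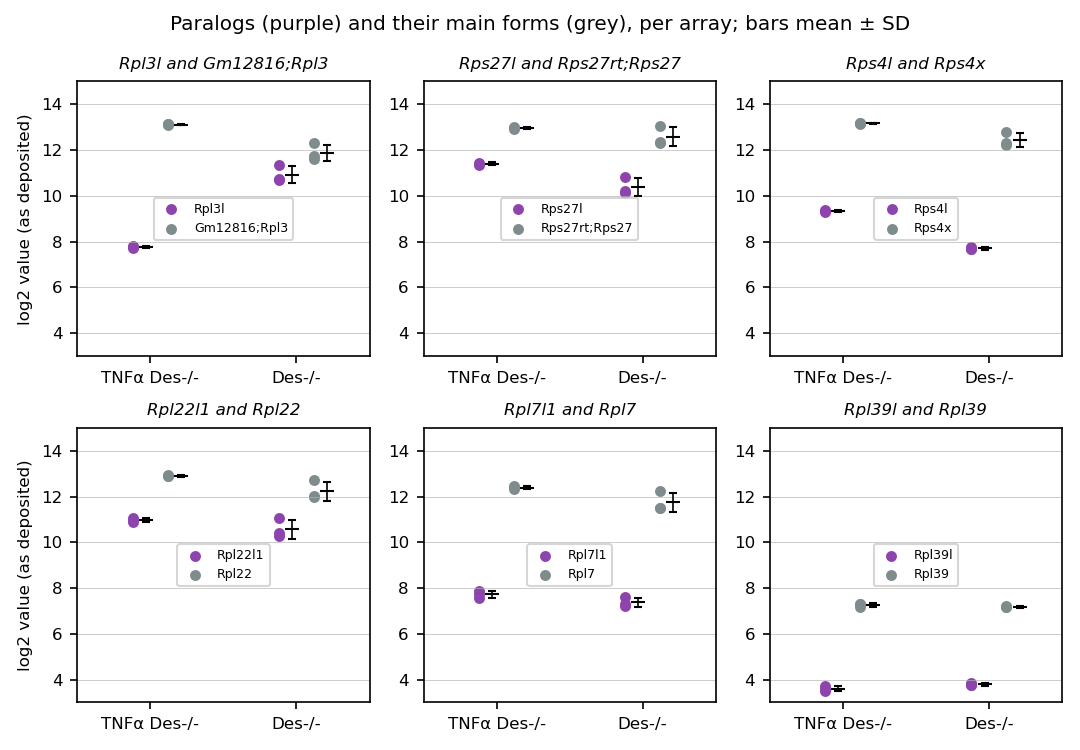
Log2 values as deposited of 6 paralogs (purple) and their main forms (grey) on each array, TNFαDes-/- left and Des-/- right, with bars for mean ± SD of 3 arrays. Rpl3l lies at 7.73 to 7.81 in TNFαDes-/- hearts and at 10.71 to 11.37 in Des-/- hearts, while the probe set of Gm12816 and Rpl3 lies at 13.09 to 13.13 in TNFαDes-/- hearts and at 11.62 to 12.30 in Des-/- hearts.

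Of the other 5 paralogs, 2 rose and 3 did not pass. Rps4l, which RefSeq lists as a transcribed pseudogene related to Rps4x, had 9.31, 9.33 and 9.36 in TNFαDes-/- hearts, against 7.78, 7.66 and 7.69 in Des-/- hearts. The groups were far apart, and Des-/- replicate 1 lay close to replicates 2 and 3. The change of 1.63 ± 0.09 (SE; 3.09-fold; limma adjusted p = 2.14e-05) was the highest among the 49 genes, and it was 1.44 after quantile normalization. Rps4x, the X-linked main form, had 13.17, 13.19 and 13.16 in TNFαDes-/- hearts, against 12.80, 12.31 and 12.21 in Des-/- hearts, a rise of 0.73 ± 0.15 (SE; limma adjusted p = 0.0109; 0.36 after quantile normalization). Within arrays, Rps4l minus Rps4x shifted by 0.90 (exact two-sided permutation p = 0.1), and by 1.08 after quantile normalization.

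Rps27l, a form of Rps27 known as a p53 target, had 11.41, 11.46 and 11.33 in TNFαDes-/- hearts, against 10.84, 10.22 and 10.11 in Des-/- hearts. The groups did not overlap. It rose by 1.01 ± 0.18 (SE; 2.01-fold; limma adjusted p = 0.0055), its 3 probe sets gave 0.95 to 1.01, and the change was 0.68 after quantile normalization (limma adjusted p = 0.00163). Rps27 itself had 5.71, 5.66 and 5.74 on its own dim probe set in TNFαDes-/- hearts, against 5.63, 5.70 and 5.63 in Des-/- hearts, with overlapping groups. The brighter probe set that Rps27 shares with Rps27rt changed by 0.38 and did not pass (limma adjusted p = 0.231). Against that shared set, Rps27l stood at -1.56, -1.46 and -1.69 in TNFαDes-/- hearts and at -2.23, -2.15 and -2.20 in Des-/- hearts, a shift of 0.63 without overlap (exact two-sided permutation p = 0.1).

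Rpl22l1, the paralog of the RNA-binding protein Rpl22, had 10.98, 10.88 and 11.05 in TNFαDes-/- hearts, against 11.06, 10.40 and 10.28 in Des-/- hearts (change 0.39, limma adjusted p = 0.183). Its groups overlapped through Des-/- replicate 1. Rpl22 had 12.89, 12.88 and 12.95 in TNFαDes-/- hearts, against 12.72, 12.03 and 11.96 in Des-/- hearts, and rose by 0.67 ± 0.19 (SE; limma adjusted p = 0.0355; 0.30 after quantile normalization). Within arrays Rpl22l1 minus Rpl22 was -1.91, -2.0 and -1.90 in TNFαDes-/- hearts, against -1.66, -1.64 and -1.68 in Des-/- hearts. That pair shifted by -0.28 without overlap (exact two-sided permutation p = 0.1).

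Rpl7l1, the paralog of Rpl7, had 7.73, 7.58 and 7.87 in TNFαDes-/- hearts, against 7.60, 7.29 and 7.23 in Des-/- hearts (change 0.35, limma adjusted p = 0.0895). Its 2 dimmer probe sets did pass, at 0.47 (limma adjusted p = 0.0246 over all probe sets) and 0.45 (limma adjusted p = 0.0144), so the outcome for this gene depends on the probe set. Rpl7 had 12.45, 12.31 and 12.42 in TNFαDes-/- hearts, against 12.23, 11.52 and 11.49 in Des-/- hearts, and rose by 0.65 ± 0.19 (SE; limma adjusted p = 0.0412). Rpl7l1 minus Rpl7 overlapped between the genotypes (exact two-sided permutation p = 0.2). Rpl39l, a form of Rpl39 known from the testis, had 3.52, 3.71 and 3.58 in TNFαDes-/- hearts, against 3.75, 3.77 and 3.87 in Des-/- hearts, below the median of every array. It did not pass (change -0.19, limma adjusted p = 0.215). Rpl39 had 7.31, 7.29 and 7.17 on its own probe set in TNFαDes-/- hearts, against 7.15, 7.15 and 7.21 in Des-/- hearts, and did not pass either (change 0.08, limma adjusted p = 0.594). The far brighter probe set that Rpl39 shares with Gm32211 lay at 13.96 to 14.12 in TNFαDes-/- hearts and 13.16 to 14.02 in Des-/- hearts. It changed by 0.54 (limma adjusted p = 0.124 over all probe sets). Rpl39l minus Rpl39 shifted by -0.27 without overlap on the own set (exact two-sided permutation p = 0.1). Against the shared set the shift was -0.73 with overlap (exact two-sided permutation p = 0.2).

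Among the ribosomal proteins that have no paralog status, changes ran upward in sign, and how many passed depended on the scaling of the arrays. All 43 had a positive change as deposited, 21 rose and 0 fell. With the paralogs, 23 of 49 (46.9%) rose, against 15.2% of all genes, and the median change was 0.50. The nearer comparison is with the other 3599 bright genes, of which 31.1% rose and 5.08% fell, with a median of 0.26. Of the 35 bright main ribosomal protein genes, 16 (45.7%) rose and 0 fell, with a median of 0.50 and a range of 0.25 to 0.85. TNFαDes-/- and Des-/- values did not overlap for 33 of the 49 genes in the upward direction and for 2 in the downward direction, Rpl3l and Rpl39l, against 24.3% and 13.7% of all genes. Of the 39 bright ones among the 49, 28 did not overlap upward and 1 downward. Of the other 3599 bright genes, 1506 did not overlap upward and 389 downward.

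After quantile normalization 16 of the 49 genes (32.7%) rose, against 12% of all genes and 19.7% of the other bright genes. Rpl3l again was the 1 that fell, against 10.4% of all genes and 17.6% of the other bright genes. The median was 0.14. The same 16 had also risen as deposited, and no gene was called in opposite directions. They were Rps4l, Rps27l, Rpl12, Rpl13a, Rpl14, Rpl22, Rpl38, Rpl7, Rps14, Rps25, Rps26, Rps28, Rps4x, Rps6, Rps7 and Rpsa. Of these, Rpl12, Rpl14, Rps25 and Rps6 were read on probe sets outside the bright genes. The brightest shared sets of Rpl12, Rps25 and Rps6 changed by 0.23, 0.31 and 0.19 after quantile normalization and did not pass (limma adjusted p = 0.091, 0.111 and 0.174 over all probe sets). That of Rpl14 stood at 0.27 and did not pass either (limma adjusted p = 0.0887). Other shared sets of Rpl12 and Rps6 did pass, at 0.33 (limma adjusted p = 0.0376) and 0.65 (limma adjusted p = 0.0152). Another Rpl14 set also passed, at 0.30 (limma adjusted p = 0.0422). For Rpl22, Rpl7, Rps14, Rps28 and Rps7, further bright sets passed neither as deposited nor after quantile normalization. After it these changed by 0.07 (Rpl22), 0.27 and 0.11 (Rpl7), 0.08 (Rps14), 0.26 (Rps28) and 0.05 (Rps7). Their limma adjusted p values were 0.0768 to 0.755 over all probe sets. Another Rpl22 set passed in both. With each array centred on the other bright genes, 11 rose and 1 fell, against 5.75% and 11.1% of all genes. Here 22.4% of the 49 rose, against 14.5% of the other bright genes, of which 11.8% fell, and the median was 0.26.

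**Figure D2:**
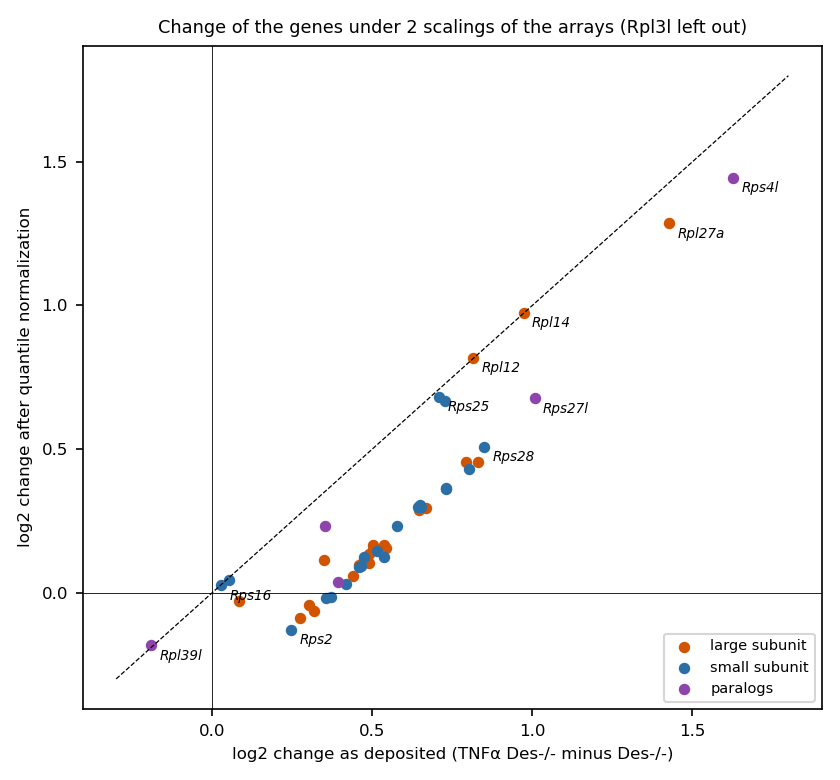
Log2 change of each ribosomal protein gene except Rpl3l, TNFαDes-/- minus Des-/-, as deposited (x axis) and after quantile normalization (y axis), with the dashed line marking equal values. Most points form a band below the line, with medians of 0.50 as deposited and 0.14 after quantile normalization over all 49 genes, and the dim Rpl14 and Rpl12 lie on the line.

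**Figure D3:**
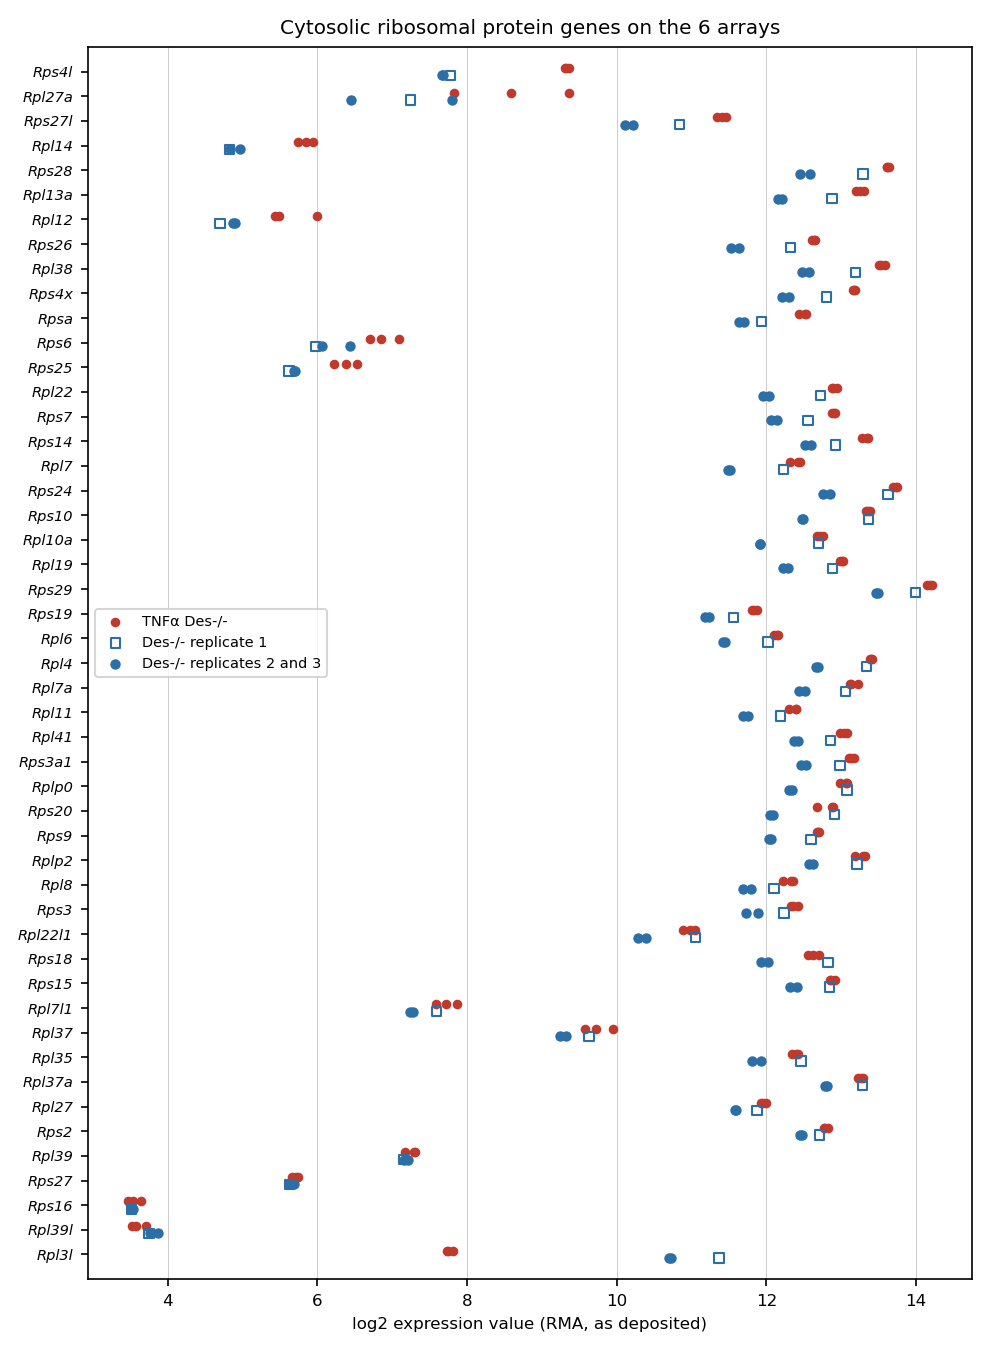
Log2 value as deposited of each of the 49 genes on each of the 6 arrays, TNFαDes-/- as red circles, Des-/- replicate 1 as open squares and Des-/- replicates 2 and 3 as blue circles, with genes ordered by change. In the bright genes Des-/- replicate 1 lies nearer to the TNFαDes-/- arrays than replicates 2 and 3 do, and Rpl3l at the bottom is the gene with the TNFαDes-/- arrays far to the left.

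This dependence had its counterpart in the single arrays. Over the 3 TNFαDes-/- arrays the median SD of the 49 genes was 0.04, against 0.30 over the Des-/- arrays, whereas over all genes it was 0.12 on the TNFαDes-/- arrays and 0.14 on the Des-/- arrays. In the 35 bright main forms, Des-/- replicate 1 lay above replicates 2 and 3 in 35 of 35 genes, by a median of 0.58, and within or above the TNFαDes-/- range in 9. The other bright genes had a median gap of 0.35 between these Des-/- arrays. Des-/- replicates 2 and 3 both lay below the TNFαDes-/- range in 35 of 35. Without Des-/- replicate 1, 43 of the 49 genes (87.8%) rose, against 57.5% of the other bright genes and 23.4% of all genes. Without Des-/- replicates 2 and 3, 4 rose, namely Rps4l, Rpl14, Rps6 and Rps25, and of these only Rps4l is a bright gene. That is 8.16% of the 49, against 8.92% of the other bright genes and 4.85% of all genes.

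The change was smaller once the median of the other bright genes was taken off each array. The median of the ribosomal protein genes minus that of the other bright genes was 3.07, 3.09 and 3.05 on the TNFαDes-/- arrays, against 2.94, 2.71 and 2.63 on the Des-/- arrays. The groups did not overlap, and the difference was 0.31 (exact two-sided permutation p = 0.1, the smallest possible). The medians of the other bright genes lay at 9.18 to 9.59 and those of the ribosomal protein genes at 11.81 to 12.64. An array shift that grows with brightness is therefore not fully taken off by this measure, and its part in the 0.31 was not tested. Genes of the mitochondrial ribosome, which has its own set of proteins, gave lower medians: of 76 measured, 15 (19.7%) rose and 1 fell as deposited with a median of 0.19, and quantile normalization left 7 higher and 10 lower with a median of -0.05.

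**Figure D4:**
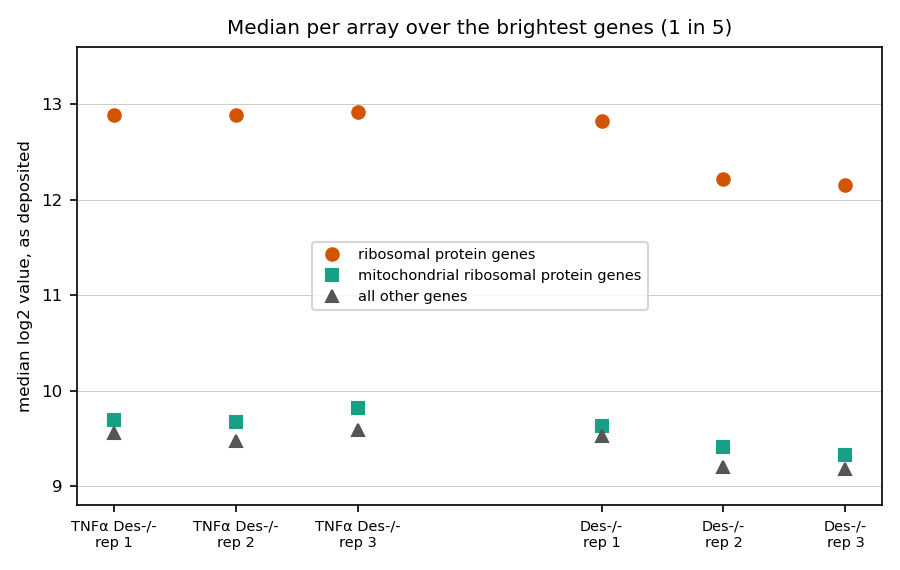
Median log2 value as deposited on each array over the 3638 brightest genes, for main ribosomal protein genes, mitochondrial ribosomal protein genes and all other genes, TNFαDes-/- arrays left and Des-/- arrays right. The ribosomal protein medians are 12.89, 12.88 and 12.92 on the TNFαDes-/- arrays and 12.83, 12.21 and 12.16 on the Des-/- arrays.

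In the large subunit 10 of 22 genes rose, 0 fell and the median change was 0.50 (6 rose after quantile normalization, median 0.14). Rpl13a, known also, in human cells, as part of the complex that silences interferon-γ induced messages, had 13.25, 13.19 and 13.30 in TNFαDes-/- hearts, against 12.88, 12.21 and 12.16 in Des-/- hearts. The groups did not overlap, and the rise was 0.83 ± 0.18 (SE; limma adjusted p = 0.0132; 0.46 after quantile normalization). Rpl38, which favours the translation of Hox messages in mouse embryos, had 13.53, 13.50 and 13.58 in TNFαDes-/- hearts, against 13.19, 12.57 and 12.48 in Des-/- hearts, a rise of 0.79 ± 0.18 (SE; limma adjusted p = 0.0143). Rpl11, which binds and inhibits the p53 ligase Mdm2 when free of the ribosome, rose by 0.49 (limma adjusted p = 0.0382) but stood at 0.10 after quantile normalization (limma adjusted p = 0.433). Rpl4, Rpl6, Rpl7a, Rpl10a and Rpl19 changed by 0.49 to 0.54 and did not pass, with limma adjusted p values of 0.0529 to 0.0867. On their brightest probe sets Rpl27, Rpl35 and Rpl37a had positive changes as deposited, at 0.27 to 0.32. After quantile normalization these were negative, at -0.09 to -0.04, and they passed in neither. Other bright Rpl35 sets changed by 0.39 to 0.52 as deposited and by 0.02 to 0.14 after quantile normalization, without passing. Further bright sets stood at 0.01 for Rpl37a and at 0.05 and -0.02 for Rpl27 after quantile normalization.

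The stalk of the large subunit, which recruits the elongation factors, did not pass. Rplp0, its base and a common reference gene, had 13.07, 12.98 and 13.08 in TNFαDes-/- hearts, against 13.08, 12.34 and 12.30 in Des-/- hearts (change 0.47, limma adjusted p = 0.124). Rplp2 had 13.31, 13.18 and 13.29 in TNFαDes-/- hearts, against 13.21, 12.63 and 12.57 in Des-/- hearts (change 0.46, limma adjusted p = 0.086). In both genes Des-/- replicate 1 lay inside the TNFαDes-/- range and replicates 2 and 3 below it. Rplp1 was reached only through a probe set shared with Gm13777, which changed by 0.58 (limma adjusted p = 0.0539 over all probe sets).

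In the small subunit 11 of 21 genes rose, 0 fell and the median change was 0.54 (8 rose after quantile normalization, median 0.14). Rps28 had 13.62, 13.61 and 13.64 in TNFαDes-/- hearts, against 13.29, 12.58 and 12.45 in Des-/- hearts, a rise of 0.85 ± 0.20 (SE; limma adjusted p = 0.0172; 0.51 after quantile normalization). Rps26, a protein at the messenger RNA exit channel, had 12.65, 12.61 and 12.64 in TNFαDes-/- hearts, against 12.32, 11.63 and 11.53 in Des-/- hearts, a rise of 0.80 ± 0.19 (SE; limma adjusted p = 0.0186). In both genes the lowest TNFαDes-/- array lay above the highest Des-/- array, replicate 1. Rpsa, which is also a laminin receptor, had 12.43, 12.53 and 12.51 in TNFαDes-/- hearts, against 11.94, 11.71 and 11.64 in Des-/- hearts. The SD over its Des-/- arrays was 0.16, against a median of 0.30 over the 49 genes, and it rose by 0.73 ± 0.11 (SE; limma adjusted p = 0.00249; 0.36 after quantile normalization). Rps7, a binder of Mdm2 like Rpl11, rose by 0.65 ± 0.14 (SE; limma adjusted p = 0.0114) and Rps14 by 0.65 ± 0.12 (SE; limma adjusted p = 0.00738). A further bright Rps7 set changed by 0.40 (limma adjusted p = 0.108 over all probe sets) and did not pass. Nor did a further bright Rps14 set, at 0.44 (limma adjusted p = 0.0685). Rps29 rose by 0.54 ± 0.15 as deposited (SE; limma adjusted p = 0.0335) and stood at 0.13 after quantile normalization (limma adjusted p = 0.31). Rps2, Rps15 and Rps18 had changes of 0.25 to 0.37 as deposited and -0.13 to -0.02 after quantile normalization, and passed in neither on their brightest probe sets. Another bright Rps15 set rose by 0.59 (limma adjusted p = 0.0216 over all probe sets; 0.23 and 0.13 after quantile normalization). Of 2 further bright Rps18 sets, 1 rose by 0.60 (limma adjusted p = 0.0314; 0.22 and 0.19 after quantile normalization). The other changed by 0.52 (limma adjusted p = 0.121), so for both genes the outcome depends on the probe set.

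To show where the pyrimidine tract lies, the 30 bases around the RefSeq start (GRCm38.p6; 15 bases before and 15 from the start on) are given for 3 paralogs, for 2 main forms and for 6 genes just described that did or did not pass. Runs of 6 or more pyrimidines are in capitals. Rpl3l, Rps27l with Rps27 and Rpl22l1 with Rpl22 come first, and large and small subunit genes after them.
Rpl3l (chr17:24727811-24727840, plus strand): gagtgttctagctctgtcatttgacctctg
Rps27l (chr9:66946071-66946100, plus strand): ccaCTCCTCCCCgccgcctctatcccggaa
Rps27 (chr3:90213634-90213663, minus strand): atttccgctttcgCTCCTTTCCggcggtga
Rpl22l1 (chr3:28805493-28805522, plus strand): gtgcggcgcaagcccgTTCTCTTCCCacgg
Rpl22 (chr4:152324421-152324450, plus strand): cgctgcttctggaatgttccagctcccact
Rpl38 (chr11:114668565-114668594, plus strand): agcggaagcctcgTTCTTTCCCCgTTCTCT
Rps28 (chr17:33824548-33824577, minus strand): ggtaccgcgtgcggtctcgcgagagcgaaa
Rpsa (chr9:120127751-120127780, plus strand): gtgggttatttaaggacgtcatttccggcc
Rplp0 (chr5:115559452-115559481, plus strand): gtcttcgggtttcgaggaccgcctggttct
Rplp2 (chr7:141447636-141447665, plus strand): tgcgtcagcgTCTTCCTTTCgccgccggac
Rpl35 (chr2:39005117-39005146, minus strand): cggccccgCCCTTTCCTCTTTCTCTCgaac
Of the 43 genes with a promoter entry, 25 (58.1%) held such a run in this window, against 29.1% of all promoters. Rpl38, which rose, and Rpl35 and Rplp2, which did not pass, held one. Rps28 and Rpsa, which rose, and Rplp0, which did not pass, held none, and neither did Rpl3l. The window depends on the annotated start, and a run that begins elsewhere would not be found in it.

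For some of the largest rises the probe set is dim or disagrees with others. Rpl27a had 8.59, 9.36 and 7.82 in TNFαDes-/- hearts, against 7.24, 7.80 and 6.45 in Des-/- hearts. The groups barely separated, and the rise of 1.43 ± 0.41 (SE; limma adjusted p = 0.0396) did not pass after quantile normalization (1.29, limma adjusted p = 0.0684). A dimmer Rpl27a probe set changed by -0.13, and a bright one shared with 4 other symbols changed by 0.58 (limma adjusted p = 0.0491 over all probe sets). Rpl14 had 5.95, 5.75 and 5.85 in TNFαDes-/- hearts, against 4.83, 4.84 and 4.96 in Des-/- hearts, a rise of 0.97 ± 0.10 (SE; limma adjusted p = 0.00046). Its 5 brighter probe sets, all shared with Rpl14-ps1, changed by 0.12 to 0.66, and by -0.21 to 0.30 after quantile normalization. Rps16 was near background on its own probe set, at 3.47 to 3.64 in TNFαDes-/- hearts and 3.51 to 3.54 in Des-/- hearts, while shared Rps16 sets were bright and changed by 0.31 and 0.51 without passing.

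Probe sets of the same gene pointed in opposite directions, each at an unadjusted limma p under 0.05, in 3 genes. For Rps24 the brightest set changed by 0.64, and of 2 dim sets 1 changed by -0.64 and the other by 1.24. For Rps9 the brightest set changed by 0.46 and a dim set by -0.84. For Rps3 the brightest set changed by 0.42 and dim sets by 1.0 and -0.54. Rps24, Rps9 and Rps3 did not pass on their brightest sets, with limma adjusted p values of 0.0576, 0.064 and 0.0593 over all genes.

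A further 110 probe sets list another symbol beside the ribosomal protein's, in many cases a predicted gene or a pseudogene and in some, such as Tax1bp3 or Flt3l, an unrelated gene. They reach 28 ribosomal protein symbols that no other probe set reached. Of the 110, 33 rose and 0 fell, against 9.94% higher and 4.93% lower among all probe sets, with a median change of 0.44. Of the 87 that are among the brightest 1 in 5 probe sets, 31 rose and 0 fell with changes of 0.06 to 1.23 and a median of 0.50. Quantile normalization left 16 higher, against 8.52% of all probe sets, and 0 lower, with a median of 0.13. For bright sets the nearer comparison is the other bright genes, although those were counted by gene. Of those genes 31.1% rose and 5.08% fell as deposited, and 19.7% rose and 17.6% fell after quantile normalization. The set of Gm12816 and Rpl3 had the highest change of these 87, followed at 1.15 by a set annotated to both Rpl13 and Tax1bp3.

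The lists of related genes that follow are to be read against all genes, of which 15.2% rose and 6.05% fell as deposited (12% and 10.4% after quantile normalization), and against the other bright genes, of which 31.1% rose and 5.08% fell as deposited. Of 67 genes of ribosome biogenesis and rRNA processing, 38 (56.7%) were higher and 1 was lower as deposited (median 0.45), and quantile normalization left 32 (47.8%) higher and 2 lower (median 0.32). Nhp2, a protein of the H/ACA particles that guide rRNA pseudouridylation, had 9.24, 9.32 and 9.40 in TNFαDes-/- hearts, against 8.01, 7.90 and 7.93 in Des-/- hearts, a rise of 1.37 ± 0.10 (SE; limma adjusted p = 8.31e-05). Dkc1, the pseudouridine synthase of the same particles, had 8.18, 8.06 and 8.18 in TNFαDes-/- hearts, against 7.11, 6.71 and 6.58 in Des-/- hearts, a rise of 1.34 ± 0.14 (SE; limma adjusted p = 0.000524). Nop58, a core protein of the C/D particles that guide rRNA methylation, rose by 1.31 ± 0.12 (SE; limma adjusted p = 0.000274). The nucleolar GTPase Gnl3 rose by 0.92 ± 0.11 (SE; limma adjusted p = 0.000843). In these 4 genes every TNFαDes-/- array lay above every Des-/- array. Of 17 genes listed for RNA polymerase I, which makes the rRNA precursor, and its factors, 4 (23.5%) rose and 0 fell (median 0.17; 2 and 1 after quantile normalization). Myc and Nop53, both among these 4, were on the list although neither is a subunit or a dedicated factor of the polymerase. Myc, a transcription factor that drives ribosome production, had 7.76, 7.72 and 7.76 in TNFαDes-/- hearts, against 6.69, 6.72 and 6.64 in Des-/- hearts, a rise of 1.07 ± 0.09 (SE; limma adjusted p = 0.000169). Taf1d rose by 0.82 ± 0.12 (SE; limma adjusted p = 0.00195), and Nop53 and Znrd1 rose by 0.46 and 0.37 as deposited but passed no longer after quantile normalization (limma adjusted p = 0.15 and 0.0813).

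Of 34 translation initiation factors 13 (38.2%) rose and 0 fell (median 0.41), and quantile normalization left 8 (23.5%) higher and 1 lower (median 0.10). Eif1a, which scans for the start codon with the small subunit, had 8.12, 8.12 and 8.30 in TNFαDes-/- hearts, against 6.85, 6.70 and 6.84 in Des-/- hearts, a rise of 1.39 ± 0.10 (SE; limma adjusted p = 9.22e-05). Pabpc1, the poly(A)-binding protein whose own message carries a pyrimidine tract, rose by 0.95 (limma adjusted p = 0.00201), Eif5 by 0.84 (limma adjusted p = 0.00101) and Eif3b by 0.53 (limma adjusted p = 0.00534; 0.30 and 0.133 after quantile normalization). Of 13 genes on the list of elongation and release factors, which also takes in related genes, 5 (38.5%) rose and 1 fell (median 0.53; the same numbers after quantile normalization, median 0.18). Eef1a1, which brings aminoacyl-tRNA to the ribosome, had 14.10, 14.11 and 14.08 in TNFαDes-/- hearts, against 13.49, 13.03 and 12.94 in Des-/- hearts, a rise of 0.94 ± 0.14 (SE; limma adjusted p = 0.00278). Eef1e1, counted on this list though not itself an elongation or release factor, rose by 1.22, Eef2 by 0.73 and the recycling factor Abce1 by 0.59. The one that fell was Eef2k, the kinase that inhibits Eef2, with 8.49, 8.27 and 8.54 in TNFαDes-/- hearts, against 9.27, 8.79 and 8.88 in Des-/- hearts (change -0.55 ± 0.14 SE; limma adjusted p = 0.0283). Fau, which encodes Rps30 in a fusion protein and lies outside the symbol rule, rose by 0.47 (limma adjusted p = 0.0444) and stood at 0.07 after quantile normalization (limma adjusted p = 0.592).

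Of 19 genes of ribosome stalling and quality control 8 (42.1%) rose and 0 fell (median 0.19; 6 and 0 after quantile normalization). Pelo, which splits stalled ribosomes, had 8.03, 8.15 and 8.18 in TNFαDes-/- hearts, against 7.19, 7.07 and 7.12 in Des-/- hearts, a rise of 1.0 ± 0.10 (SE; limma adjusted p = 0.000341). Serbp1, known to occupy the messenger RNA channel of idle ribosomes, rose by 1.20 ± 0.16 (SE; limma adjusted p = 0.00144), and the stress granule proteins G3bp1 and G3bp2 rose by 0.77 and 0.70. Of 29 genes of mTORC1 and its control of pyrimidine tract messages 6 (20.7%) rose and 2 (6.9%) fell, shares near those of all genes (median 0.18). Quantile normalization left 3 (10.3%) higher and 2 lower. Eif4ebp1, the translation repressor that mTORC1 inactivates, had 11.28, 11.34 and 11.37 in TNFαDes-/- hearts, against 10.68, 10.28 and 10.27 in Des-/- hearts, a rise of 0.92 ± 0.13 (SE; limma adjusted p = 0.00182). The mTORC1 inhibitors moved in different directions: Ddit4 rose by 0.65 (limma adjusted p = 0.0135), Sesn2 rose by 0.50 (limma adjusted p = 0.0114) and Ddit4l fell, with a change of -0.96 (limma adjusted p = 0.0071). Of 9 genes of the p53 checkpoint that answers free ribosomal proteins 3 (33.3%) rose and 0 fell, around a median of -0.00 (4 and 1 after quantile normalization). Cdkn1a, the p53-induced inhibitor of the cell cycle, had 10.07, 10.08 and 10.14 in TNFαDes-/- hearts, against 8.65, 8.66 and 8.52 in Des-/- hearts, a rise of 1.49 ± 0.09 (SE; limma adjusted p = 4.58e-05). Phlda3 rose by 0.66 (limma adjusted p = 0.00554) and Mdm2 by 0.46 (limma adjusted p = 0.0431), while Zmat3 stood at 0.39 (limma adjusted p = 0.0594).

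**Figure D5:**
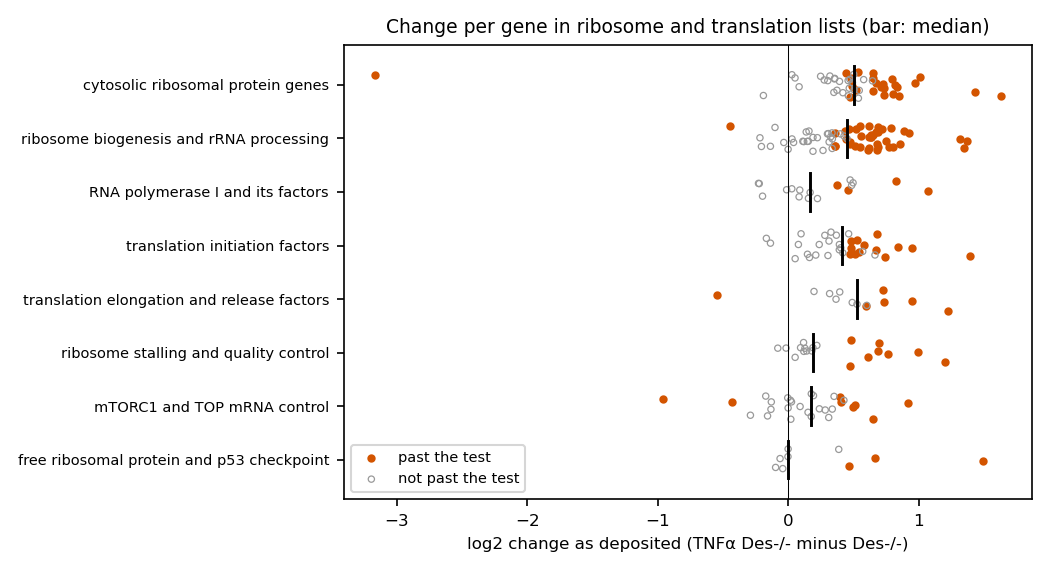
Log2 change as deposited, TNFαDes-/- minus Des-/-, of each gene in the cytosolic ribosomal protein genes and 7 lists of ribosome and translation genes, filled where the limma adjusted p is under 0.05, with a bar at each median. The ribosome biogenesis genes, with 38 of 67 higher, sit around a median of 0.45, and Rpl3l is the point at -3.17.

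Markers of other cells moved between the genotypes as well, and their part in the results above was not tested. For Rpl3l, whose known sources are heart and skeletal muscle, the 12 cardiomyocyte markers gave 0 higher and 0 lower, with changes of -0.00 for Ryr2 to 0.50 for Actc1 and a summed level, on the log2 scale, of 17.91 to 17.95 in TNFαDes-/- hearts and 17.32 to 18.01 in Des-/- hearts. After quantile normalization 2 of the 12, Tnni3 and Ryr2, were lower. Of 10 skeletal muscle markers, Tnnt3 and Atp2a1 fell, by 0.40 and 0.39 on the log2 scale. Myog and Pvalb, among the defining genes of that tissue, had means of 4.40 and 5.10 in TNFαDes-/- hearts and 4.37 and 5.12 in Des-/- hearts, and 4 of the 10 lay below the median of every array. The summed level of these 10 was 8.15 to 8.43 in TNFαDes-/- hearts and 8.32 to 8.52 in Des-/- hearts.

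Beside the rises of the ribosome genes, 6 of 9 macrophage markers rose and Cd68 fell (summed level 13.49 to 13.53 in TNFαDes-/- hearts, 12.84 to 13.24 in Des-/- hearts), and 3 of 8 fibroblast markers rose (15.25 to 15.28 in TNFαDes-/- hearts, 14.43 to 14.97 in Des-/- hearts). Of 8 smooth muscle and pericyte markers 1 rose and 2 fell (13.84 to 13.93 in TNFαDes-/- hearts, 12.93 to 13.50 in Des-/- hearts). In the other direction, 3 of 8 endothelial markers (13.29 to 13.39 in TNFαDes-/- hearts and 13.32 to 13.82 in Des-/- hearts), 3 of 5 adipocyte markers (9.11 to 9.19 in TNFαDes-/- hearts and 9.97 to 10.46 in Des-/- hearts) and Alas2 among 4 erythroid markers (6.81 to 7.10 in TNFαDes-/- hearts and 7.91 to 8.51 in Des-/- hearts) fell. Of 7 lymphocyte markers 0 passed, 3 lay below the median of every array, and the summed level was 8.07 to 8.23 in TNFαDes-/- hearts and 7.93 to 8.26 in Des-/- hearts. These counts and summed levels are as deposited, and some depend on the scaling. After quantile normalization 2 fibroblast markers were higher and 2 lower, and 1 smooth muscle and pericyte marker was higher and 4 lower. Of the endothelial markers 6 were then lower. The macrophage, adipocyte, erythroid and lymphocyte counts stayed the same.

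Control probe sets for RNA quality separated the genotypes too. The 3′ minus 5′ difference of Gapdh was 0.34, 0.28 and 0.34 on the TNFαDes-/- arrays, against -0.05, -0.00 and 0.01 on the Des-/- arrays, and that of Actb was 0.78, 0.62 and 0.79 on the TNFαDes-/- arrays, against 0.41, 0.46 and 0.57 on the Des-/- arrays. The 18S rRNA control (3′ probe set) overlapped, at 7.11, 8.06 and 7.37 on the TNFαDes-/- arrays and 5.88, 9.55 and 7.15 on the Des-/- arrays. The part of these differences in the changes of the ribosomal protein genes was not tested.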

How the data were processed

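Total RNA of mouse hearts was hybridised to 6 arrays. The values are log2 expression per probe set, made by the authors with RMA, per the submitters' processing notes and deposited as 1 table of 45101 probe sets. The background correction, its software version and the array scanner settings are not given in the sources used here. Of the probe sets, 64 are controls. Gene names came from the platform annotation, where 34945 probe sets carry 1 symbol and 932 carry several, which named no gene. For a gene with several probe sets the one brightest on average over the 6 arrays was used (18193 genes).

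The genotypes were contrasted by limma (version 3.58.1, under R version 4.3.3), using lmFit and eBayes with group as the only term over all 6 arrays, Benjamini-Hochberg adjustment and a threshold of 0.05, a step tested on simulated data. Paralogs were set against main forms within each array, with a two-sided exact permutation test over 3 against 3 arrays. The number of arrays limits the precision. Figures were drawn with matplotlib 3.10.9. Quantile normalization ran over all 45101 probe sets. Alternatives covered the normalization, a replicate block, variance model, array weights, dim genes, choice of probe set and arrays left out. Replicate numbers were shared by the genotypes, but the deviations of same-numbered arrays correlated at 0.25, 0.31 and -0.30, so they were not treated as pairs.

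The genes, lists, tests and alternatives were chosen with earlier results of these data known. Named were all measured paralogs and main forms, the stalk proteins and Rpsa, the 6 largest rises and falls past the test, genes whose probe sets disagree, the 4 genes of each list with the smallest adjusted p, and the 5 neighbours on each side of Rpl3l. Rpl11, Rpl38, Rps7, Rps14, Rps26, Rps29 and groups of genes given by range were named after their values were seen, as were further list genes. Neighbour order, promoters and their sequences are from RefSeq (GRCm38.p6), in which 43 of 49 genes had a promoter entry.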

Additional observations from a re-analysis of the deposited data

How the results depend on the processing

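The fall of Rpl3l kept its direction under all 16 alternatives and passed the test in each, the fit with a lone Des-/- array aside. Its size was bound to stay at -3.17 under the replicate block, the variance model, dim genes left out and the choice of probe set. Those alternatives could move only its p-value. The median change of the ribosomal protein genes stayed positive under all 16, from 0.13 without Des-/- replicates 2 and 3, through 0.14 after quantile normalization, to 0.69 (0.50 as reported). Leaving out 1 array at a time gave medians of 0.39 to 0.69, 2068 to 5814 genes past the test (3869 as reported) and 9 to 43 ribosomal protein genes higher (23 as reported), the most without Des-/- replicate 1. Without Des-/- replicates 2 and 3, 1587 genes passed and 4 ribosomal protein genes were higher. That fit has fewer samples and assumes that the lone Des-/- array varies like the TNFαDes-/- arrays. With array weights 8414 genes passed, 44 ribosomal protein genes were higher and 2 lower, and centring on the bright genes left 11 higher; the cause was not tested. Rpl3l minus the Gm12816 and Rpl3 probe set, -4.40 as reported, was -4.28 after quantile normalization, -3.84 with all probe sets averaged, and -4.43 to -4.38 with 1 array left out. A replicate block gave 4278 genes past the test and 33 ribosomal protein genes higher, with 2 of 6 arrays correlating best with their own number. In this balanced design the block cannot move a change, so that the size of the fall of Rpl3l and every sign were bound to stay. With 3 arrays a group and probe sets near background, small changes such as those of Rps16 or Rpl39l cannot be resolved.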
